A study of Mus musculus with 6 samples.

Results

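The granule exocytosis machinery is represented here by 9 genes, measured by RNA-seq in c-kit+ marrow from leukaemic mice at the end point: the small GTPase genes Rab27a, Rab27b and Rab37, the priming factor gene Unc13d, the SNARE and SNARE-binding genes Stx11, Snap23, Vamp8 and Stxbp2, and the granule size regulator gene Lyst. They were chosen by symbol (GENCODE M21, the annotation of mouse build GRCm38), and all 9 were found among the 43629 genes of the table and passed the filter on low counts, as did 15432 genes in all. The rule names them by function and uses no measured value, though the members were chosen with earlier results of these data known. All mice were C57BL/6 and carried a Cbfb-MYH11 knockin allele, which makes the fusion protein of human inversion 16 acute myeloid leukaemia. Replicates 3, 5 and 6 were Gata2+/+, and replicates 7, 9 and 11 were Gata2+/f, with 1 Gata2 allele written as + and 1 written as f. Whether the f allele was recombined is not stated in the labels. Age, and what drives a recombinase if one was used, are not given in the sources used here. Each library came from thawed marrow that had been sorted for Kit, so every value is a mean over the cells that the sort kept, whatever their type. Where a transcript is lower in such bulk RNA, fewer cells that make it and less of it per cell cannot be told apart.

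Secretory cells of the blood store proteases, amines and antimicrobial proteins in granules and release them when a granule fuses with the plasma membrane. RAB27 proteins sit on the granule and recruit effectors, of which MUNC13-4 (encoded by Unc13d) tethers and primes it. Fusion itself is the zippering of a vesicle SNARE (VAMP8) with SNAREs of the target membrane (syntaxin 11 or other syntaxins, and SNAP23), guided by MUNC18-2 (encoded by Stxbp2). Inherited loss of RAB27A, MUNC13-4, syntaxin 11, MUNC18-2 or LYST impairs granule release from cytotoxic lymphocytes and other blood cells in humans. The same genes are used by mast cells, neutrophils and platelets, and the cells differ in which RAB27 form they make.

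The libraries held 53789568 to 67854631 estimated counts. Gata2, the gene whose genotype differed, had 886, 887 and 737 CPM (counts scaled to library size, with TMM factors) in the Gata2+/+ libraries, against 498, 273 and 264 CPM with the f allele. Kit, the marker of the sort, was detected in every library, at 826 to 1466 CPM in Gata2+/+ and 175 to 328 CPM in Gata2+/f. The 10 early granulocyte and 14 monocyte and dendritic cell markers summed to 986 to 3515 and 405 to 1012 CPM in Gata2+/+, and to 2558 to 12443 and 1106 to 2556 CPM in Gata2+/f. In Gata2+/+ and Gata2+/f, T and NK cell markers summed to 11.9 to 44.1 and 24.2 to 109 CPM. Most of that was Nkg7 (10.1 to 41.2 and 19.7 to 105 CPM), and each other marker was at 5.01 CPM or less in every library. B cell markers summed to 3.76 to 10.3 CPM in Gata2+/+ and 16.7 to 26.3 CPM in Gata2+/f. For the erythroid and eosinophil lists the sum and the genes differed in direction. The 11 erythroid markers, whose sum is mostly globin RNA, summed to 6544 to 10540 and 2017 to 6654 CPM, while their median log2 fold change was 0.42. The 6 eosinophil markers summed to 95.7 to 169 and 19.6 to 69.9 CPM, mostly from Siglecf (90.9 to 165 and 5.32 to 51.1 CPM), but 3 of them, the granule protein genes Prg2, Prg3 and Epx, were higher in each Gata2+/f library, and the median was 0.66. Nothing in the labels says whether the mice were littermates or the libraries were made together.

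Rab27b and Rab37 were several-fold lower in Gata2+/f, and Rab27a was higher by a smaller amount. The genes that prime and fuse the granule had values that overlapped between the groups. In edgeR's quasi-likelihood test with Benjamini-Hochberg adjustment over all genes, 0 of 9 members had an adjusted p under 0.05, where 0% of all genes did. At an unadjusted p under 0.05 in that test there were 3 members, against 22.6% of all genes. Of these, 1 was higher and 2 were lower in Gata2+/f, where 11.1% and 11.5% of all genes were higher and lower at that p. Single libraries moved this count: it was 1, Rab27b, without Gata2+/+ replicate 3 (where 2146 genes in all had such a p, against 3486 with every library) and 2 without Gata2+/+ replicate 5 or 6 or Gata2+/f replicate 9. Without Gata2+/f replicate 11 it was 3, with Snap23 in place of Rab27a. The groups did not overlap for the same 3 members, against 29.7% of all genes, so that neither share stands out from the table as a whole. DESeq2's Wald test called 1 member, Rab27b, against 11.9% of all genes, while limma voom and the newer form of edgeR's test called 0 members (0.0583% and 0.207% of all genes). The median log2 fold change (Gata2+/f against Gata2+/+) was −0.25 over the 9 members (−0.34 to −0.14 with 1 library left out) and 0.019 over all genes tested.

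**Figure D1:**
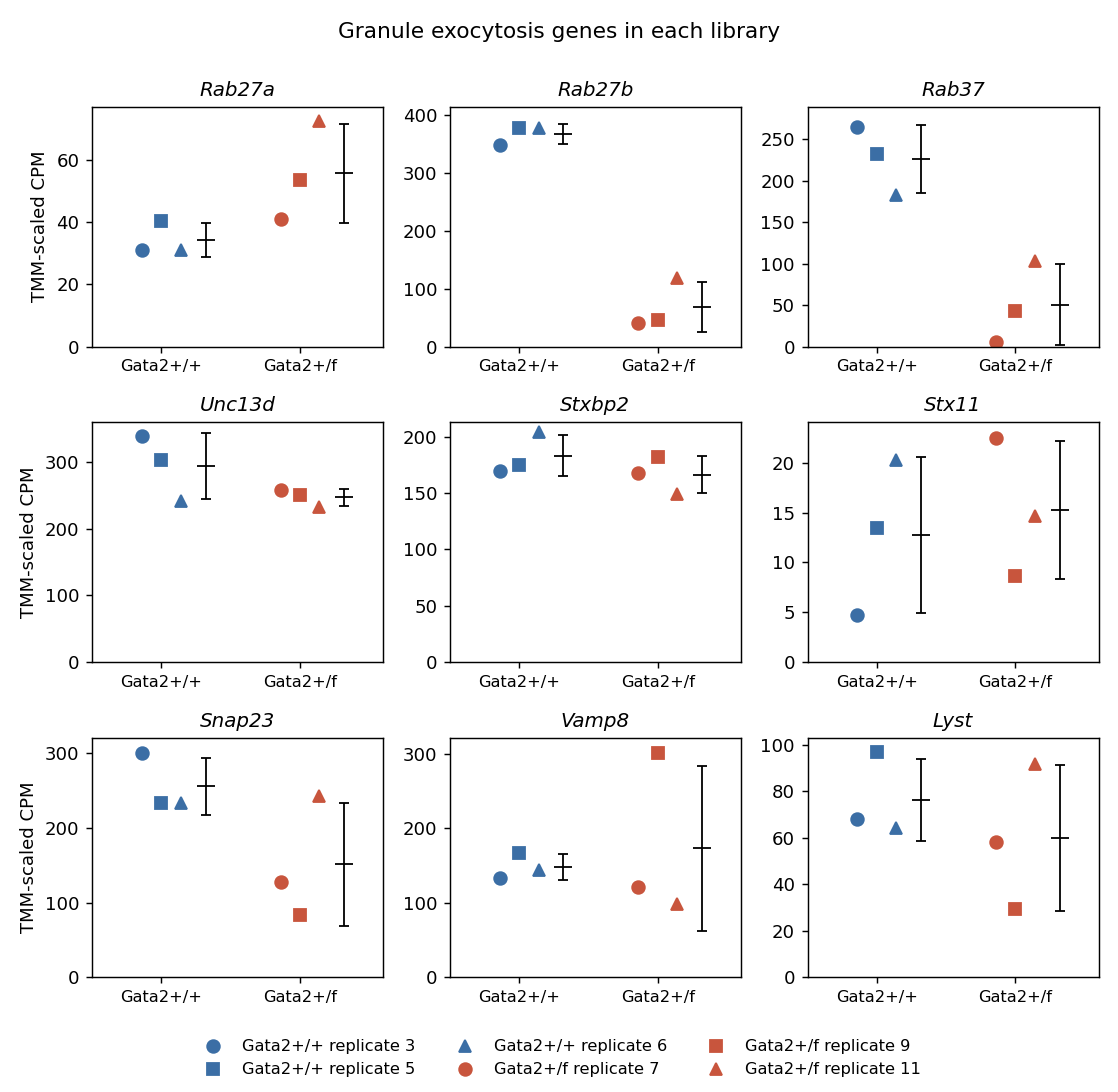
TMM-scaled CPM (y axis, from 0) of the 9 genes in each library, with Gata2+/+ in blue and Gata2+/f in red; the bar beside each group is the mean and SD of 3 libraries. Rab27b and Rab37 sit lower in all 3 Gata2+/f libraries, Rab27a sits higher by a narrow margin, and the other 6 genes overlap.

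Rab27b encodes the RAB27 form best known from mast cells and platelets; its gene lies on chromosome 18 from 69979131 to 70141605, on the reverse strand. Gata2+/+ replicates 3, 5 and 6 had 348, 377 and 377 CPM, and Gata2+/f replicates 7, 9 and 11 had 41.6, 46.9 and 118 CPM. The 3 Gata2+/+ libraries were nearly alike, with a coefficient of variation of 4.57%, and each Gata2+/f library lay below them, replicate 11 the least. The means were 368 ± 16.8 and 68.8 ± 42.6 CPM (SD, n = 3 here and below), a fitted 5.34-fold difference (log2 fold change −2.42, SE 0.43, 95% interval −3.41 to −1.43). Rab27b ranked 80 by p among the 15432 genes and did not pass there (edgeR's adjusted p = 0.0955). It did in DESeq2's Wald test (adjusted p = 6.69e-05) and in edgeR's test once Gata2+/f replicate 11 was left out (log2 fold change −3.02, adjusted p = 0.0255), where 0.418% of all genes passed. Over the alternatives tried, its adjusted p ran from 6.69e-05 to 0.279. Genes of chromosome 18 as a whole lay 0.35 lower (log2) in Gata2+/f replicate 9 than in the middle of the libraries, and −2.33 of the difference remained after the chromosome's median was taken off.

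Rab37 encodes a small GTPase first described on mast cell secretory granules (chromosome 11, from 115091431 to 115162236, forward strand). Gata2+/+ replicates 3, 5 and 6 showed 264, 231 and 182 CPM, compared with 5.69, 43.5 and 103 CPM for Gata2+/f replicates 7, 9 and 11. The Gata2+/+ libraries lay close together, while the Gata2+/f libraries spread over an 18.2-fold range below them. The means were 226 ± 41.2 and 50.8 ± 49.2 CPM, and the fitted difference was 4.45-fold (log2 fold change −2.15, SE 0.84, interval −4.10 to −0.21, edgeR adjusted p = 0.194). Its size leaned on single libraries, at −3.17 to −1.58 with 1 library left out. The Rab37 locus encloses Cd300lf, a myeloid receptor gene on the other strand that shares 0 exon bases with it; Cd300lf was at 7.58 ± 6.16 CPM in Gata2+/+ and, in the opposite direction, at 41.7 ± 35.5 CPM in Gata2+/f.

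Markers of mast cells and basophils were lower in the same libraries as Rab27b and Rab37. The 16 markers summed to 12617 to 14841 CPM in Gata2+/+ and to 2027, 2120 and 5957 CPM in Gata2+/f replicates 7, 9 and 11. Of the 15 tested, 14 were lower on average in Gata2+/f and 10 were lower without overlap, against 16.6% of all genes. Only the tryptase gene Tpsab1 was at 0 counts in all 3 Gata2+/f libraries. It was scarce in Gata2+/+ too, at 0.0800, 0.255 and 0.249 CPM in replicates 3, 5 and 6. Like the summed markers, Rab27b was highest in replicate 11 among the Gata2+/f libraries, and so was Rab37. The markers of megakaryocytes and platelets summed to 592 to 779 CPM in Gata2+/+ and 60.2 to 266 CPM in Gata2+/f, mostly from Itga2b (495 to 647 and 20.4 to 106 CPM), with Gp6 at 0 in every library. Of the 10 of these markers tested, 5 were lower and 5 higher on average, with a median log2 fold change of 0.068. The part of either cell type in the lower Rab27b and Rab37 values was not tested.

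Rab27a encodes the RAB27 form that cytotoxic lymphocytes, neutrophils and melanocytes depend on (chromosome 9, from 73044854 to 73097629, forward strand). Its values were 31.0, 40.4 and 31.1 CPM for Gata2+/+ replicates 3, 5 and 6, then 41.1, 53.4 and 72.6 CPM for Gata2+/f replicates 7, 9 and 11. Gata2+/f replicate 11 was the highest, and Gata2+/f replicate 7 lay just above Gata2+/+ replicate 5. That margin was gone with upper quartile scaling or another filter on low counts, where the groups overlapped. The means were 34.2 ± 5.41 and 55.7 ± 15.9 CPM, 1.63-fold apart (log2 fold change 0.70, SE 0.27, interval 0.064 to 1.34), and edgeR's adjusted p was 0.196. Markers of late neutrophils moved with it: the 15 summed to 542 to 1817 CPM in Gata2+/+ and to 5332, 7110 and 13133 CPM in Gata2+/f replicates 7, 9 and 11. Of these markers 15 of 15 were higher on average and 12 of 15 higher without overlap, against 13.1% of all genes, and 0 were at zero counts in either group. Their part in the Rab27a values was not tested.

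For Rab27a the start-site table of RefSeq (GRCm38.p6) gives 2 start sites, and the 250 bases before each are shown because this is the member whose groups did not overlap and for which the table holds sequence. Snap23 is shown beside it as the member of the table with the largest fitted difference. Of the 9 members, 6 were in the table, and Rab27b, Unc13d and Rab37 were not. Each window was searched on both strands for GATA factor hexamers (AGATAA with its variant form AGATAG, then TGATAA with its variant form TGATAG) and for E-boxes, the sites of MITF and related factors (CACGTG or the form CATGTG); the 2 kinds of motif cannot match at the same 6 bases. Capitals mark the matches, and the strand is the gene's own, 5′ to 3′:
Rab27a, chr9:73044560-73044809: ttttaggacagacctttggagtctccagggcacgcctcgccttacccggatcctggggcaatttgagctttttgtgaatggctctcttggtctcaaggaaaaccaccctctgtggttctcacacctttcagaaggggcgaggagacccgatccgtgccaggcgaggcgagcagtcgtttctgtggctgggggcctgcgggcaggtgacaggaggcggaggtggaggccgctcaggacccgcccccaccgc
Rab27a, chr9:73063898-73064147: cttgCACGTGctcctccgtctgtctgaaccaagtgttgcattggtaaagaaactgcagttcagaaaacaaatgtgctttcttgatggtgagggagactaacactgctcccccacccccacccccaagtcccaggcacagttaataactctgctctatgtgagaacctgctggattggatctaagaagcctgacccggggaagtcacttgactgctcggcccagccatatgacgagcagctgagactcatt
Snap23, chr2:120567421-120567670: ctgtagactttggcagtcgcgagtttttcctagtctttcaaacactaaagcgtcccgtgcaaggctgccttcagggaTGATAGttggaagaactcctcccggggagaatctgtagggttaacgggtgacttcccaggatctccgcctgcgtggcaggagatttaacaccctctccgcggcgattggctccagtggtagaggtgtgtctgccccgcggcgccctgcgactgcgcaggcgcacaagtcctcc
The first Rab27a window held neither kind of match, the second held CACGTG with its first base at −246 from the start site, and the Snap23 window held TGATAG at −173. Over all 32851 windows of the table, 26.5% held a GATA hexamer and 17.6% an E-box. Of the other 4 members with a window, Vamp8 had a GATA hexamer, Stxbp2 an E-box, and Stx11 and Lyst neither; their windows reach into annotated exons and are not shown. These are matches of letters, and the counts carry no information on binding.

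Because the RAB27 forms are close relatives, their balance was read within each library, on RPKM (CPM per kilobase of summed exon length). In Gata2+/+ replicates 3, 5 and 6 the Rab27b level was 4.08, 3.39 and 4.40 times that of Rab27a, and in Gata2+/f replicates 7, 9 and 11 the ratio was 0.367, 0.319 and 0.590. The summed level of both was 40.6, 45.8 and 43.3 RPKM in Gata2+/+ and 14.5, 18.2 and 29.8 RPKM in Gata2+/f. The sum was thus lower in each Gata2+/f library than in any Gata2+/+ library. The mean log2 ratio was 1.98 ± 0.19 in Gata2+/+ and −1.29 ± 0.46 in Gata2+/f, a 9.58-fold difference that does not depend on the gene lengths. The lengths do decide which form is ahead in Gata2+/f. Rab27b made up 29.4% of the sum there with summed exon lengths (3879 and 10679 bases for Rab27a and Rab27b), 45.7% with the mean length of protein-coding transcripts (3074 and 4135 bases), and 53.0% of the undivided counts. With each of these settings Rab27b was the larger part in Gata2+/+, at 79.7%, 88.9% and 91.5%. Rab27a shares 149 exon bases with a pseudogene annotation that had 0 counts, and the counts of Rab27a and Rab27b were whole numbers in all 6 libraries.

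**Figure D2:**
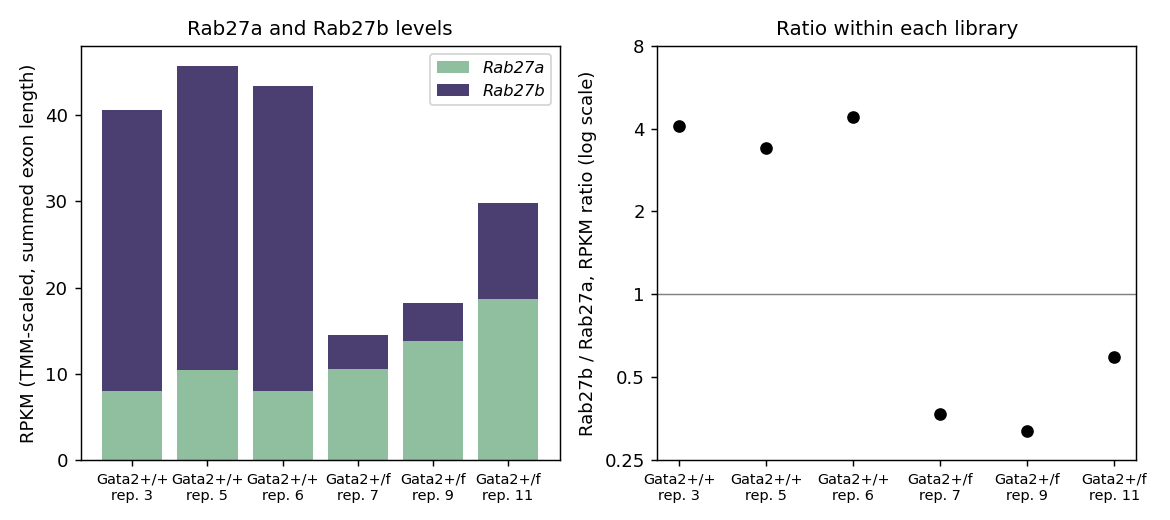
Left, Rab27a and Rab27b levels stacked for each library in RPKM (summed exon length); right, their ratio in each library on a log axis, with a line at 1. The ratio is 3.39 to 4.40 in Gata2+/+ and 0.319 to 0.590 in Gata2+/f, and the stacked sum is lower in each Gata2+/f library.

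Unc13d and Stxbp2 had the narrowest intervals of the 9 genes, and both contained 0. Unc13d encodes MUNC13-4, the RAB27 effector that primes granules (chromosome 11, from 116062095 to 116077961, reverse strand). Libraries of Gata2+/+ mice had 340, 303 and 242 CPM and those of Gata2+/f mice 258, 250.3 and 233 CPM, with overlapping groups and a coefficient of variation of 5.09% among the Gata2+/f libraries. The means of 295 ± 49.3 and 247 ± 12.6 CPM gave a log2 fold change of −0.25 with an interval from −0.76 to 0.26 (edgeR adjusted p = 0.507). Stxbp2, for the syntaxin chaperone MUNC18-2 (chromosome 8, from 3630955 to 3643644, forward strand), was at 169.8, 175 and 204 CPM in Gata2+/+, and at 168, 182 and 149 CPM in Gata2+/f. Its groups overlapped in part, and Gata2+/f replicates 7 and 11 lay below every Gata2+/+ library. The means were 183 ± 18.3 and 166 ± 16.4 CPM, with a log2 fold change of −0.14 and an interval from −0.61 to 0.33 (edgeR adjusted p = 0.705). Both intervals leave out a 2-fold difference in either direction, which would be a log2 fold change of −1 or 1. Genes of chromosome 8, where Stxbp2 lies, were 0.42 higher (log2) in Gata2+/f replicate 7 than in the middle of the libraries. In Gata2+/f replicate 11 they were 0.18 lower. With the chromosome's median taken off, the Stxbp2 log2 fold change was −0.30 in place of −0.14, and no interval was computed for that value.

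The SNARE genes Snap23, Vamp8 and Stx11 had overlapping groups. Among the Gata2+/f libraries they spread 2.88-, 3.05- and 2.61-fold from lowest to highest. Snap23 encodes the ubiquitous SNAP25 relative of the plasma membrane (chromosome 2, from 120567671 to 120601255, forward strand). In Gata2+/+ replicates 3, 5 and 6 it reached 300.2, 233 and 234 CPM, while Gata2+/f replicates 7, 9 and 11 had 127, 84.2 and 243 CPM. Gata2+/f replicates 7 and 9 lay below the Gata2+/+ libraries and replicate 11 among them. The means were 256 ± 38.6 and 151 ± 82.0 CPM (log2 fold change −0.76, interval −1.65 to 0.14, edgeR adjusted p = 0.282), and leaving out Gata2+/f replicate 11 gave −1.23 (adjusted p = 0.0928). Without that library Snap23 and Lyst also showed no overlap, which brought the count to 5 of 9 members, against 43.9% of all genes.

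Vamp8 encodes the granule SNARE endobrevin (chromosome 6, from 72385223 to 72390703, reverse strand). Its 133, 167 and 145 CPM in Gata2+/+ compared with 122, 300.4 and 98.5 CPM in Gata2+/f replicates 7, 9 and 11. Gata2+/f replicate 9 stood far above the other 5 libraries, whereas the other 2 Gata2+/f libraries lay below every Gata2+/+ library. The log2 fold change of 0.23 (interval −0.74 to 1.20, edgeR adjusted p = 0.774) turned to −0.38 without replicate 9. In that library the early granulocyte markers summed to 12443 CPM, against 986 to 3515 CPM in the other 5, and genes of chromosome 6 lay 0.21 higher (log2) than in the middle of the libraries. The part of either in the Vamp8 value was not tested.

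Stx11 encodes a syntaxin without a membrane-spanning segment and was the rarest SNARE of the set (chromosome 10, from 12938209 to 12964298, reverse strand). Its CPM were 4.68, 13.4 and 20.3 in Gata2+/+, and 22.5, 8.62 and 14.7 in the Gata2+/f libraries. Both groups spread several-fold, by 4.34 and 2.61 times from lowest to highest, and covered the same range. The log2 fold change of 0.25 had an interval from −1.09 to 1.59 (edgeR adjusted p = 0.818) and turned to −0.091 when Gata2+/+ replicate 3 was left out, and to −0.090 when Gata2+/f replicate 7 was.

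Lyst encodes a large BEACH domain protein whose loss gives the giant granules of beige mice and Chediak-Higashi syndrome (chromosome 13, from 13590397 to 13778803, forward strand). Gata2+/+ libraries held 68.2, 96.7 and 64.2 CPM, whereas Gata2+/f libraries held 58.4, 29.5 and 91.8 CPM. Gata2+/f replicate 9 was the lowest library and replicate 11 lay within the Gata2+/+ range. The means were 76.4 ± 17.7 and 59.9 ± 31.2 CPM (log2 fold change −0.35, interval −1.29 to 0.59, edgeR adjusted p = 0.627), and the log2 fold change was 0.024 without replicate 9.

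**Figure D3:**
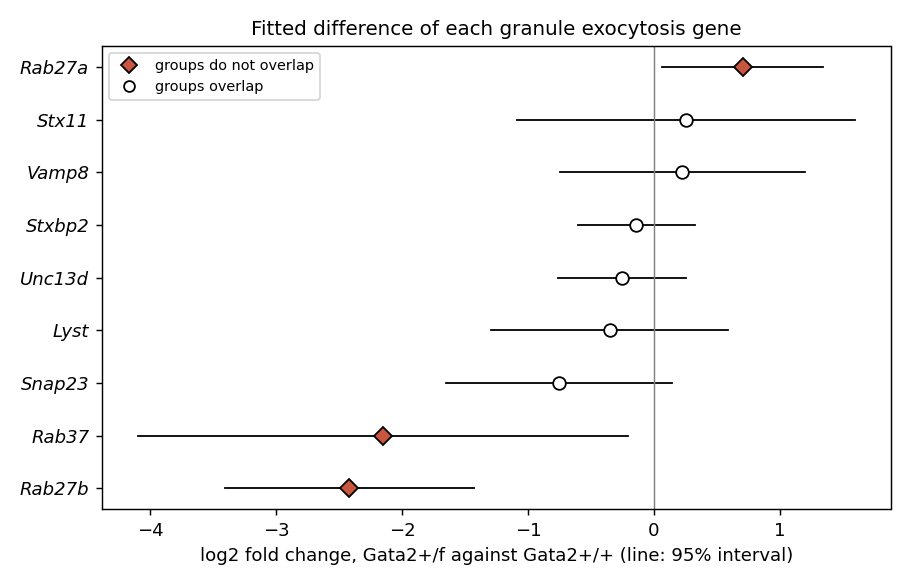
Fitted log2 fold change of Gata2+/f against Gata2+/+ for each gene (x axis), with 95% intervals from edgeR's quasi-likelihood model; filled diamonds are genes whose groups do not overlap. The intervals of Rab27b, Rab37 and Rab27a leave out 0 before adjustment over all genes, and those of Unc13d and Stxbp2 are the narrowest.

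Compared per summed exon length, the order of the levels was different in the 2 groups. Places in the order depend on the length used, and other lengths were tried for Rab27a and Rab27b alone. In Gata2+/f the Rab27b part of their sum was 29.4% here and 45.7% with the mean length of protein-coding transcripts. In Gata2+/+ the RPKM means were 64.2 ± 7.34 for Vamp8, 63.0 ± 10.5 for Unc13d and 59.6 ± 8.98 for Snap23, whose libraries overlapped. Next came Stxbp2 (44.0 ± 4.40), Rab37 (42.4 ± 7.73) and Rab27b (34.4 ± 1.57), where neighbours in this order overlapped too. Rab27a (8.82 ± 1.39) was clear of Rab27b above and of Lyst (4.37 ± 1.01) below, and Lyst overlapped Stx11 (3.04 ± 1.86). In Gata2+/f, Vamp8 (75.1 ± 47.8) and Unc13d (52.8 ± 2.69) again led, followed by Stxbp2 (39.9 ± 3.95) and Snap23 (35.3 ± 19.1). Rab27a (14.4 ± 4.10), Rab37 (9.53 ± 9.23) and Rab27b (6.44 ± 3.99) came after these, each overlapping the next, as did Stx11 (3.63 ± 1.65) and Lyst (3.43 ± 1.79). On this scale Rab27b stood at the 90.7 percentile of 15263 genes in Gata2+/+ and at the 59.7 percentile in Gata2+/f, and Rab37 at 92.5 and 69.3. Unc13d, by contrast, kept 95.1 and 94.6, and Vamp8 95.2 and 96.2.

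The 9 genes did not move as a block across the 6 libraries. Of their 36 pairs, 19 had a negative Pearson r of log2 CPM over the 6 libraries, which share the 2 group levels. The highest was between Rab27b and Rab37 (r = 0.889), followed by Rab27b and Snap23 (0.854) and Snap23 and Lyst (0.840), and the lowest was between Vamp8 and Lyst (−0.777). Among 156 genes of the secretion and cell type lists expressed at a mean log2 CPM of at least 3, those most like Rab37 were Fcer1a, the IgE receptor alpha chain of mast cells and basophils (0.992), Hba-a2 (0.975) and the mast cell chymase gene Cma1 (0.966). For Rab27b they were Stx17 (0.979), Dennd4a (0.977) and the IL-33 receptor gene Il1rl1 (0.970), and for Rab27a the neutrophil gene Retnlg (0.987), F13a1 (0.978) and Mmp8 (0.977). Snap23 was most like Rab38 (0.954), Stx3 (0.944) and Ms4a2 (0.935), Lyst most like Hps5 (0.935), and Stx11 most like the monocyte receptor gene Cx3cr1 (0.976). Vamp8, Stxbp2 and Unc13d had their closest likeness to Bloc1s1 (0.797), Bloc1s3 (0.869) and Stx4a (0.920). With 6 libraries in 2 groups these values describe the libraries and no more.

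The other secretion genes, 157 on 5 lists, gave the setting in which the 9 genes sit. Of these, 125 were tested and 0 passed in edgeR's quasi-likelihood test, where 0% of all genes did. In that test 26 had an unadjusted p under 0.05, against 22.6% of all genes. Of the 26, 6 were higher and 20 lower, where 11.1% and 11.5% of all genes were higher and lower at that p. In DESeq2's Wald test 13 passed, against 11.9% of all genes. The groups did not overlap for 9 higher and 29 lower genes, where 13.1% and 16.6% of all genes were higher and lower without overlap, and the median log2 fold change was −0.16.

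Among 33 tested RAB27 effectors and other secretory Rab genes (40 listed), 13 were higher and 20 lower on average, with a median of −0.12. Without overlap 4 were higher and 8 lower, against 13.1% and 16.6% of all genes. Mlph, for melanophilin, which couples RAB27A to myosin Va in pigment cells, showed 71.7, 6.89 and 29.5 CPM in Gata2+/+, against 0.0990, 1.203 and 0.239 CPM in Gata2+/f. Its log2 fold change was −6.14 (SE 1.24) with an edgeR adjusted p of 0.0966. The widely spread Gata2+/+ libraries all lay above the Gata2+/f libraries. Dennd4a, for a Rab exchange factor, had 359 ± 57.2 and 120 ± 35.5 CPM (−1.58, edgeR adjusted p = 0.0955). Madd, for an exchange factor of RAB3 and RAB27, had 153 ± 17.8 and 93.2 ± 14.7 CPM (−0.72). Rab38, a Rab of lysosome-related organelles, was at 183 ± 45.7 and 42.3 ± 33.7 CPM (−2.12). Rab32, on the same list, went the other way without overlap, with means of 8.93 and 27.8 CPM (1.64, edgeR adjusted p = 0.148).

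The synaptotagmin-like RAB27 effectors went separate ways. Sytl3 showed 22.5, 28.3 and 5.87 CPM in Gata2+/+, against 0.0141, 0.902 and 3.66 CPM in Gata2+/f, where replicate 7 held 1 count (log2 fold change −3.63, edgeR adjusted p = 0.189). Sytl1 was scarce, at 1.15 ± 0.622 and 4.23 ± 2.49 CPM, and higher in each Gata2+/f library (1.87, adjusted p = 0.159). Sytl2 and Sytl4 stayed under 6 CPM in every library with overlapping groups. Unc13b, a relative of Unc13d, varied from 1.15 to 66.8 CPM with overlap (−1.41), and Unc13a lay between 2.82 and 4.82 CPM in all libraries. Of the RAB3 genes, which act on secretory vesicles in many cells, Rab3d had 22.8 ± 4.90 and 38.7 ± 9.96 CPM without overlap (0.76, adjusted p = 0.197) and Rab3a 2.83 ± 1.53 and 3.02 ± 0.702 CPM.

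Other SNARE genes and SM (Sec1/Munc18) protein genes numbered 35 tested of 38, with 13 higher and 22 lower on average and a median of −0.12. Without overlap 2 were higher and 6 lower, against 13.1% and 16.6% of all genes. Stx3, a syntaxin that binds MUNC18-2 on granules, was at 125, 82.4 and 134 CPM in Gata2+/+, and at 15.7, 5.98 and 41.2 CPM in Gata2+/f (−2.44, standard error 0.64, adjusted p in edgeR's test 0.121). It thus stood lower in each Gata2+/f library, in the same order of libraries as Snap23 within that group. Vamp2 had 86.8 ± 2.46 and 43.7 ± 14.2 CPM (−0.99, adjusted p = 0.131), Stx1a 23.8 ± 10.02 and 4.88 ± 4.58 CPM (−2.29) and the autophagosome syntaxin gene Stx17 83.8 ± 7.35 and 50.7 ± 9.50 CPM (−0.72), all without overlap. The plasma membrane syntaxin gene Stx4a (110 ± 17.9 and 85.7 ± 8.74 CPM), Vamp3 (61.4 ± 26.7 and 54.5 ± 4.52 CPM), Vamp7 (12.6 ± 0.850 and 14.1 ± 7.57 CPM) and Stxbp3 (20.4 ± 1.69 and 21.6 ± 8.38 CPM) had overlapping groups.

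Of 37 calcium sensor, complexin and SNARE recycling genes only 15 were expressed enough to test, 8 higher and 7 lower on average with a median of 0.10. Stxbp5, for tomosyn, which holds SNAREs back, had 130 ± 17.7 and 75.7 ± 11.2 CPM (−0.78, edgeR adjusted p = 0.127). It was the 1 gene of this list lower without overlap, against 16.6% of all genes. The 1 gene higher without overlap, against 13.1% of all genes, was Sv2a (0.83). Rims3, Stxbp6 and Sv2a stayed under 3 CPM. The 9 exocyst subunit genes, whose product tethers vesicles at the plasma membrane, had a median of −0.083 with 3 higher and 6 lower on average. In edgeR's test 0 of them had an unadjusted p under 0.05, against 22.6% of all genes. Exoc2 had the smallest p (103 ± 19.4 and 68.04 ± 23.2 CPM, −0.60), and Exoc3 (−0.28), Exoc5 (−0.30) and Exoc8 (0.38) followed.

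Genes for lysosome-related organelles and BEACH domain proteins, some of which build and shape granules before release, were lower on average for 27 of 33. Of all 15432 genes tested, 7551 were lower on average. The median of the list was −0.35. Without overlap 13 of its genes were lower and 2 higher, against 16.6% and 13.1% of all genes. Nbeal2, a BEACH domain relative of Lyst whose loss empties platelet alpha granules, was at 250.0, 325 and 187 CPM in Gata2+/+, and at 41.2, 70.3 and 98.5 CPM in Gata2+/f (−1.86, adjusted p in edgeR's test 0.0966). Every Gata2+/f library was below every Gata2+/+ library, unlike for Lyst. Dtnbp1, for the BLOC-1 subunit dysbindin, had 68.7 ± 8.43 and 33.6 ± 10.9 CPM (−1.03), the HOPS subunit gene Vps39 had 140 ± 15.5 and 84.1 ± 14.1 CPM (−0.74), and the AP-3 subunit gene Ap3m2 had 18.4 ± 4.67 and 9.43 ± 1.70 CPM (−0.96).

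**Figure D4:**
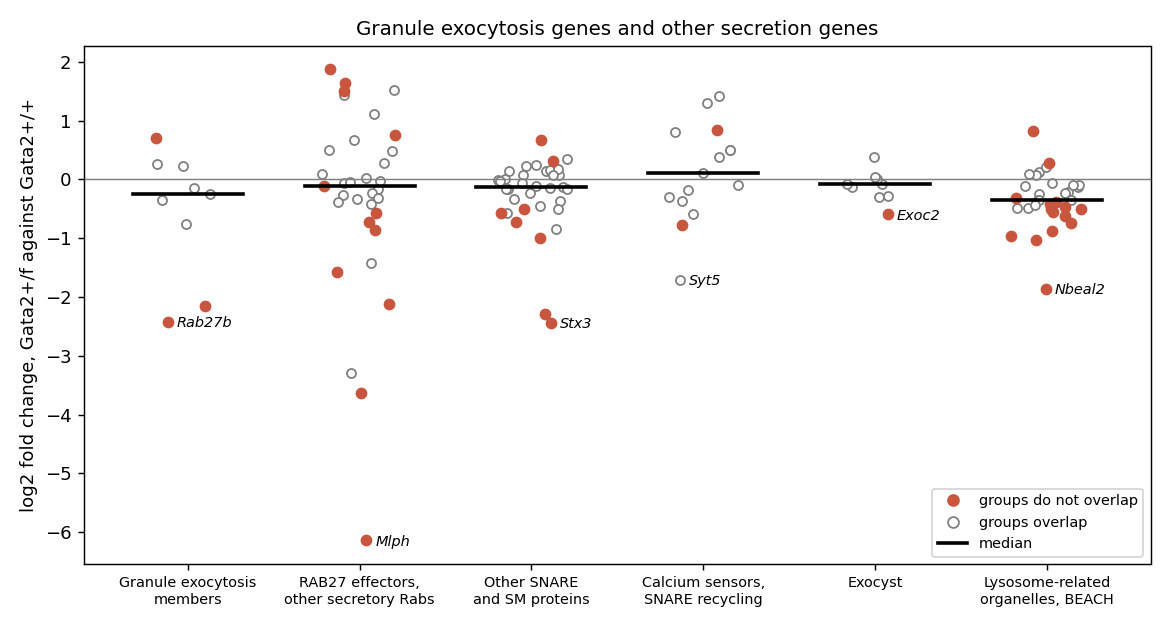
Log2 fold change of Gata2+/f against Gata2+/+ (y axis) for the 9 genes and the other lists of secretion genes; each point is a tested gene, filled where the groups do not overlap, the bar is the list median, and the lowest gene of each list is named. Medians lie between −0.35 and 0.10, and the lowest named points run from Mlph at −6.14 to Exoc2 at −0.60.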

How the data were processed

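Poly-A selected, stranded libraries were made from sorted, thawed marrow, per the labels' protocols. RSEM 1.3.0, STAR 2.5.4a, CASAVA 1.8.2 and build GRCm38 are named, with no roles given, per the submitters' processing notes. The authors deposited expected counts per gene, not normalized (11.7% not whole); annotation release and strand setting are not given in the sources used here. GENCODE M21 named 42548 of 43629 IDs (97.5%).

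Counts were rounded, filtered with filterByExpr (minimum count 10), scaled by TMM and tested with edgeR 4.0.16 in R 4.3.3 (glmQLFit, glmQLFTest, two-sided; Benjamini-Hochberg over all 15432 tested genes; threshold 0.05). DESeq2 1.42.0, limma 3.58.1 (voom), other scalings and filters, unrounded counts, a threshold of 0.1 and leaving out each library were alternatives. The edgeR fit was first run on counts simulated with known changes. At these depths 3 counts are 0.0424 to 0.0600 CPM. Likeness used log2 CPM with a prior count of 2.

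The members and lists were chosen with earlier results of these data known. Named were all members, their direct partners and up to 4 genes of smallest p per list. The 3 genes most like a member were named too, as were Gata2 and Kit. Tpsab1, Gp6, Cd300lf, Siglecf, Prg2, Prg3, Epx, Itga2b, Nkg7 and Rab32 were named after their values were seen. A partner gene is not reported here. P-values set the group difference against the spread between these libraries, which the fit estimates with sharing over genes.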

Additional observations from a re-analysis of the deposited data

How the results depend on the processing

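The direction of Rab27b, Rab37, Rab27a, Snap23, Unc13d and Stxbp2 was the same in each of the 15 alternatives tried. With 1 library left out, those of 3 others reversed: Stx11 ran from −0.091 (Gata2+/+ replicate 3 left out; −0.090 for Gata2+/f replicate 7) to 0.78, Vamp8 from −0.38 (Gata2+/f replicate 9) to 0.54 and Lyst from −0.76 to 0.024 (Gata2+/f replicate 9). Members called were 1 with DESeq2 and 1 at an adjusted p under 0.1, and 0 to 1 with 1 library left out; members without overlap were 3 to 5 with 1 library left out. Of all genes, DESeq2 called 1829, the newer form of edgeR's test 32, limma voom 9, no filter beyond 1 count 19 and an adjusted p under 0.1 444, with 0 to 66 when 1 library was left out; DESeq2 called 13 other secretion genes. Rab27a overlapped between groups with upper quartile factors, with no filter beyond 1 count and with a filter of 1 CPM in 3 libraries. Upper quartile factors moved the median of all genes to 0.11, against 0.019. The 2 other gene lengths for the Rab27b share were chosen after seeing the data. No paired analysis was possible because the groups share no replicate number. Groups of 3 were not tested for single outlying libraries.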
